A study of Caenorhabditis elegans with 40 samples.

Results

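The passage of Caenorhabditis elegans males from the last larval stage (L4) to the young adult (YA) was followed in 8 whole-animal RNA libraries, 4 of YA males and 4 of L4 males, out of the 40 libraries of a study that covered 5 stages in both sexes. The 8 libraries were chosen by their labels alone, and the stage change was described across all genes of the deposited count table. Animals of both groups were dpy-28(y1);him-8(e1489) double mutants raised at 25 °C, and the groups differed by stage. All male libraries therefore carried a mutation in dpy-28, whose product belongs to the complex that equalises X-linked expression, and one in him-8, which is needed for the X chromosomes to pair in meiosis. The male cultures were described as nearly pure, so hermaphrodites may remain in them. The hermaphrodite libraries used for reference were wild-type N2, so that sex and strain cannot be told apart. Messenger RNA was counted at its 3′ end with unique molecular identifiers (UMIs), and each value below is a normalised count, that is, a UMI count scaled to a common library size. The 4 repeats of a group were biological repeats. Unless stated, p-values rest on the spread between repeats as estimated over all 40 libraries, not over the 8 male libraries alone.

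The last molt replaces the L4 cuticle by the adult one. The epidermis secretes collagens in waves ahead of each molt, on a template of apical matrix proteins, and many hedgehog-related and patched-related proteins of nematodes cycle with the molts. In the same interval the male tail is remodelled into the copulatory fan with its rays, the germ line of the male goes on making sperm, and the male tract starts to secrete seminal fluid. Yolk proteins are made by the intestine of adult hermaphrodites, and in males the DM domain factor MAB-3 represses them.

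YA males had 6144095 to 6728560 UMIs a library and L4 males 3744519 to 6139147. Log2 CPM values correlated across genes at 0.982 to 0.987 between YA male libraries and at 0.974 to 0.984 between L4 male libraries, against 0.907 to 0.938 for pairs of a YA and an L4 library. Of 11933 genes in the table, 8110 had enough counts to be tested, and 3823 did not. A gene was called when its adjusted p was at most 0.05, its absolute log2 fold change at least 1 and its mean normalised count at least 5. All adjusted p-values come from edgeR's quasi-likelihood test in 1 model over the 40 libraries, with Benjamini-Hochberg adjustment over the 8110 genes, and all fold changes are YA over L4 unless stated. Of the genes tested, 22.8% were called, 818 higher in YA males (10.1%) and 1032 lower (12.7%). The libraries of the 2 stages did not overlap for 795 of the 818 and for 949 of the 1032, and for 42.7% of all genes tested. The decreases were larger. Among them 542 reached 4-fold and 169 reached 8-fold, against 178 and 67 of the increases, and the median log2 fold change was -2.06 for genes called lower and 1.40 for genes called higher. This split depended on the scaling. With DESeq2 size factors in place of TMM the median of all genes moved by 0.15 on the log2 scale, to 0.10 from -0.05, and 1037 genes were called higher and 888 lower. Leaving out L4 male replicate 2 gave 1055 higher and 804 lower. Differences of that size are therefore not read as changes here. Among the hermaphrodite libraries used below, YA replicates 1 and 4 stood apart from YA replicates 2 and 3, with counts of male genes such as clec-207, and the counts of differences between the sexes and the levels relative to YA hermaphrodites are given with and without them. Replicate 4 of the YA males had the highest value of its group for 502 of the 1032 genes called lower, and without it 758 genes were called higher and 984 lower.

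**Figure D1:**
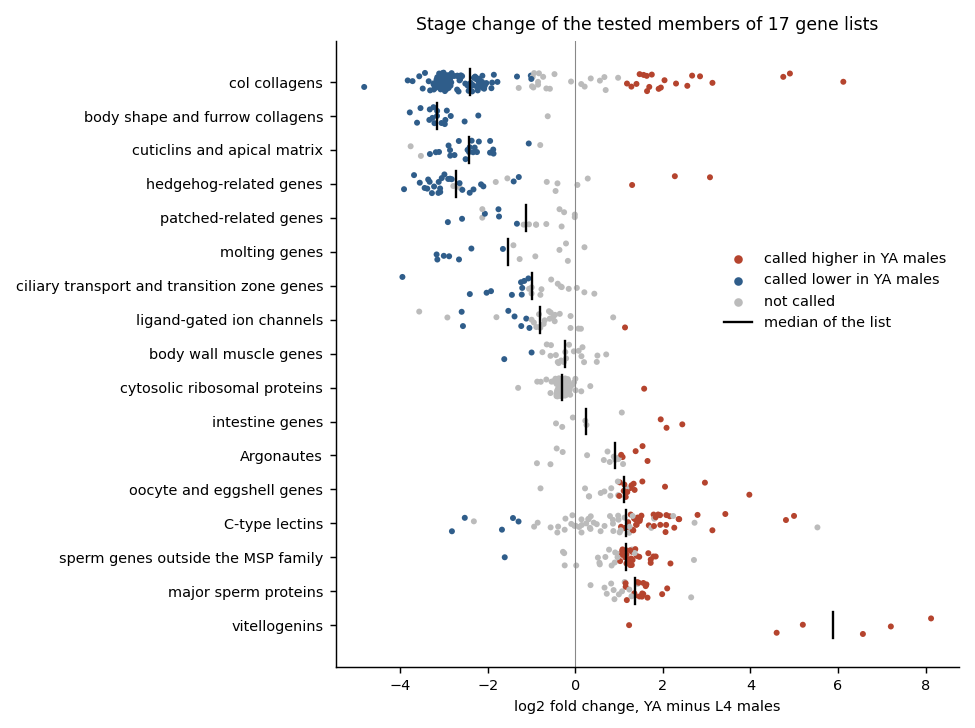
Log2 fold change (YA minus L4 males) of every tested member of 17 gene lists, 1 point a gene, coloured by whether it was called higher, called lower or not called; the black bar is the median of the list. Lists of cuticle and molting genes lie mostly to the left of 0, with some members called higher, 20 col collagens among them. Lists of sperm, yolk and lectin genes lie mostly to the right.

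The cuticle collagens were exchanged. Of 137 tested collagens of the col family, 20 rose in YA males and 97 fell, and the family as a whole took about the same share of all UMIs at both stages, 21.4% to 23.9% in YA male libraries and 19.4% to 22.3% in L4 male libraries. The 20 that rose held 17.4%, 15.5%, 16.6% and 16.8% of the UMIs of the YA male libraries, against 3.95%, 4.24%, 3.92% and 5.29% in the L4 male libraries. The 97 that fell held 2.06%, 1.81%, 1.72% and 2.60% in YA males, against 12.61%, 12.82%, 11.98% and 12.28% in L4 males. All of the 10 genes with the highest mean count in YA males were col collagens, and 2 of the 10 in L4 males. The family's median log2 fold change was -2.41, beside -0.05 over all genes tested.

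Among the collagens that rose, col-101 (chromosome IV, 325435 to 327020) changed most of those with a mean count of at least 50. Its normalised counts were 44620, 36866, 46880 and 48549 in YA males, against 1439, 1502, 1342 and 1636 in L4 males. Every YA library stood far above every L4 library, a 29.9-fold difference (log2 fold change 4.90 ± 0.31 SE, adjusted p = 5.82e-15). A lower member, col-95 (chromosome III, 11703994 to 11705091), had 5785, 5114, 6107 and 4724 in YA males, against 169, 189, 169 and 281 in L4 males, again without overlap (log2 fold change 4.75 ± 0.35 SE, adjusted p = 1.14e-13). The 6 most abundant genes called higher were all collagens that L4 males already made at high level. Counts of col-140 were 103390, 81204, 96034 and 112610 in YA males, against 35665, 34851, 37851 and 33794 in L4 males (log2 fold change 1.47 ± 0.28 SE, adjusted p = 6.93e-05). For col-20 they were 93964, 78341, 92573 and 100390 in YA males, against 22038, 23552, 22230 and 26552 in L4 males (log2 fold change 1.95 ± 0.32 SE, adjusted p = 7.59e-06). In both genes the groups were far apart, and the YA library with the lowest count was replicate 2. The others of this group, col-124, col-181, col-178 and col-122, rose by 1.28, 1.64, 1.75 and 1.40 on the log2 scale. A pair of well-known adult collagens was looked up after the values of the family had been seen. The gene col-19, whose promoter is widely used as a marker of the adult epidermis, had 60795, 44572, 57200 and 65213 in YA males, against 14845, 17529, 17214 and 21093 in L4 males (log2 fold change 1.69 ± 0.39 SE, adjusted p = 6.99e-04). Another collagen of the adult, col-119, had 72544, 58349, 66897 and 72669 in YA males, against 9557, 11291, 10249 and 14848 in L4 males (log2 fold change 2.56 ± 0.42 SE, adjusted p = 7.48e-06). In L3 males, which this comparison does not use, col-19 averaged 8.28 and col-119 3.76, against L4 means of 17670 and 11486. For col-101 the means were 162 in L3 males, 1480 in L4 males and 44228 in YA males.

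Of the 6 most abundant genes called lower 4 were col collagens, and the others were F41F3.3 and ram-2. F41F3.3, a gene without a name, had 9215, 7224, 9962 and 12855 in YA males, against 69695, 69184, 72843 and 59640 in L4 males (log2 fold change -2.79 ± 0.32 SE, adjusted p = 5.89e-09). Counts of col-73 were 5531, 3721, 5438 and 7470 in YA males, against 38560, 43561, 41308 and 40142 in L4 males (log2 fold change -2.88 ± 0.25 SE, adjusted p = 9.82e-12). Those of ram-2, a gene named for abnormal rays of the male tail, were 5980, 4892, 5780 and 8384 in YA males, against 35890, 35464, 37549 and 31264 in L4 males (log2 fold change -2.49 ± 0.35 SE, adjusted p = 4.17e-07). For these genes replicate 4 was the highest of the YA libraries and still lay far below the lowest L4 library. The pair col-12 and col-13, whose sequences are so alike that reads may be split between them in an uncertain way, fell by 5.24-fold and 4.79-fold (adjusted p = 2.39e-04 and 4.43e-04). The gene col-125 fell by 6.17-fold, col-38 by 9.44-fold, col-174 by 11.8-fold, col-110 by 13.2-fold and col-79 by 14.2-fold, all without overlap of the groups. Of the 97 col collagens that fell, 63 (64.9%) had been higher in L3 males than in YA males, beside 88.9% of all genes called lower.

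Collagens named for body shape and those of the annular furrows fell almost without exception, 17 of 18 tested, with a median log2 fold change of -3.16. Together they took 0.22% to 0.32% of the UMIs in YA males, against 1.96% to 2.44% in L4 males. The blister collagen bli-2 (chromosome II, 5651394 to 5652434), of the struts of the adult cuticle, had 384, 285, 85.7 and 556 in YA males, against 3812, 5218, 4237 and 4776 in L4 males (log2 fold change -3.78 ± 0.36 SE, adjusted p = 6.75e-11). Its YA libraries varied more than 6-fold among themselves, with replicate 3 the lowest and replicate 4 the highest, yet all lay below the L4 libraries. Counts of sqt-1, a cuticle collagen whose mutants roll or are short, were 1107, 691, 547 and 1184 in YA males, against 8914, 9519, 8214 and 9006 in L4 males (log2 fold change -3.34 ± 0.21 SE, adjusted p = 5.82e-15). The furrow collagens dpy-7, dpy-8 and dpy-10 fell by 7.84-fold, 8.93-fold and 7.19-fold, and lon-3, which acts on body length, by 12.3-fold. In this list the fall in hermaphrodites, whose median was -5.07, was the larger, and the difference between the sexes was called for 17 of the 18 genes, 16 with the smaller fall in males, beside 33.8% and 17.3% of all genes. Both counts were the same without YA hermaphrodite replicates 1 and 4, where 24.2% of all genes had the more positive change in males.

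**Figure D2:**
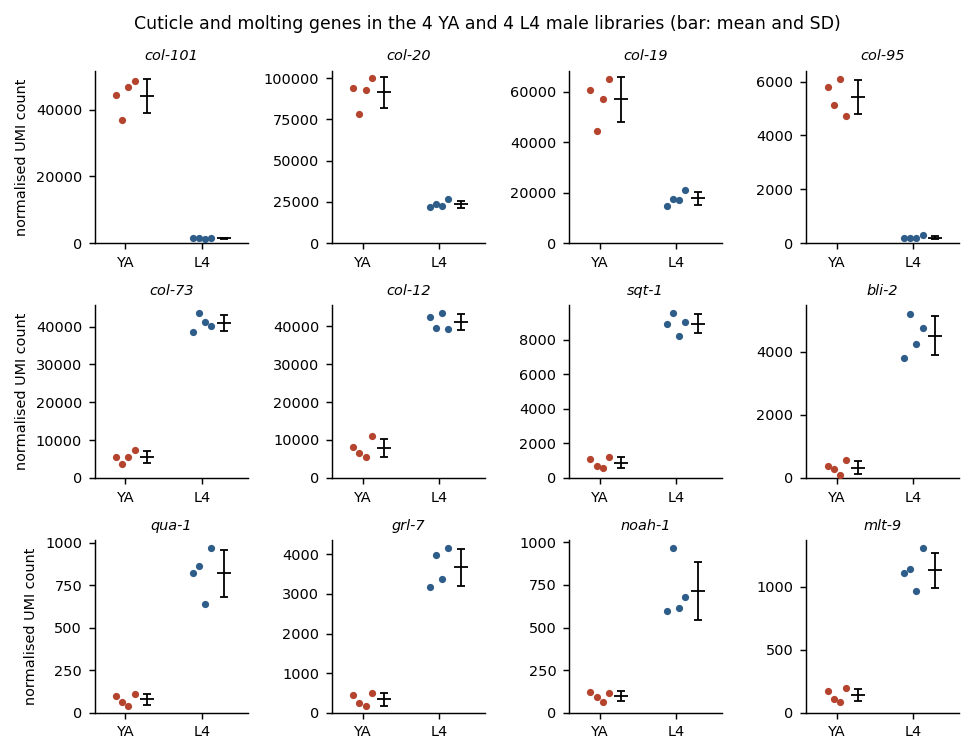
Normalised UMI counts of 12 cuticle and molting genes in each of the 4 YA male libraries (left, red) and 4 L4 male libraries (right, blue), with the mean and SD beside the points; all axes start at 0. The groups do not overlap in any of the 12 genes: col-101, col-20, col-19 and col-95 are higher in YA males, and the other 8 are lower.

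Hedgehog-related genes encode secreted proteins of the groundhog, ground-like, warthog and quahog families. Of 38 tested 26 fell (68.4%, beside 12.7% of all genes) and 3 rose (7.89%, beside 10.1%). The median was -2.72. Counts of qua-1, which is required for molting, were 98.8, 61.5, 41.9 and 113 in YA males, against 822, 862, 638 and 969 in L4 males (log2 fold change -3.38 ± 0.23 SE, adjusted p = 2.89e-14). The groups were far apart, and YA replicates 1 and 4 were the higher of the YA libraries. For grl-7 they were 438, 245, 162 and 504 in YA males, against 3174, 3978, 3372 and 4152 in L4 males (log2 fold change -3.44 ± 0.28 SE, adjusted p = 1.37e-12), with the same order among the YA libraries. The genes wrt-4 and grd-1 fell by 7.27-fold and 7.08-fold. Of the patched-related genes, which encode membrane proteins like the hedgehog receptor, 6 of 18 fell (33.3%) and none rose. Examples are ptc-3 by 3.35-fold, ptr-11 by 3.38-fold and ptr-3 by 6.02-fold.

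Cuticlins and other proteins of the apical matrix fell in 22 of 25 (88%, beside 12.7% of all genes) and rose in none, with a median of -2.43. The ZP domain protein gene noah-1 had 124, 91.4, 63.3 and 114 in YA males, against 598, 967, 615 and 677 in L4 males (log2 fold change -2.86 ± 0.23 SE, adjusted p = 1.53e-12), and noah-2 fell by 6.33-fold. The lipocalin gene lpr-3, of the matrix that precedes the cuticle, had 278, 136, 109 and 179 in YA males, against 725, 1141, 769 and 911 in L4 males (log2 fold change -2.34 ± 0.23 SE, adjusted p = 1.90e-10). Both genes were higher still in L3 males, where they averaged 1626 and 2671. Genes known from molting defects fell in 7 of 14 (50%, beside 12.7% of all genes) and rose in none. Among these, mlt-9 had 170.0, 110.0, 88.6 and 195 in YA males, against 1109, 1141, 964 and 1309 in L4 males (log2 fold change -3.01 ± 0.22 SE, adjusted p = 1.61e-13), and mlt-10 and acn-1, an ACE-like protein without catalytic residues, fell by 5.19-fold for acn-1 and by more, -3.17 on the log2 scale, for mlt-10. All 4 YA libraries of mlt-9 lay below its L4 libraries by at least 4-fold. The astacin metalloprotease NAS-37, which opens the old cuticle at ecdysis, had a transcript that fell by 6.32-fold, and those of nas-27 and nas-30 fell by 8.43-fold and 6.87-fold. Another astacin, nas-11, went the other way, with 254, 237, 208 and 222 in YA males, against 68.8, 80.5, 57.7 and 81.5 in L4 males (log2 fold change 1.67 ± 0.25 SE, adjusted p = 1.14e-06). Of 16 astacin genes 2 rose (12.5%) and 5 fell (31.2%), beside 10.1% and 12.7% of all genes.

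The list of heterochronic genes, which time development, had 3 of 7 called. Of these 1 was higher (14.3%, beside 10.1% of all genes) and 2 were lower (28.6%, beside 12.7%). The period homologue lin-42, which times the molting rhythm, had 64.7, 44.5, 34.1 and 63.2 in YA males, against 250.4, 446, 333 and 414 in L4 males (log2 fold change -2.81 ± 0.31 SE, adjusted p = 2.57e-09). Every YA library lay far below the lowest L4 library, replicate 1. The nuclear receptor gene nhr-25, required for molting, fell by 3.15-fold from a low level, and nhr-91 by 3.76-fold, 2 of the 6 called among 59 nuclear hormone receptors, all lower (10.2%, beside 12.7% of all genes). The call of nhr-25 was lost on thinning (adjusted p = 0.123). The zinc finger gene lin-29, which drives the switch of epidermal cells to their adult fate, had 189, 180.3, 158 and 232 in YA males, against 383, 386, 342 and 376 in L4 males. Its libraries did not overlap, but its log2 fold change of -0.97 ± 0.27 (SE, adjusted p = 0.00561) missed the fold limit. The F-box gene dre-1, of the same pathway, fell by 2.10-fold, a call that ended with DESeq2 size factors, where the log2 fold change of dre-1 was -0.92. Of 7 heterochronic genes tested 1 rose, lin-41, at 24 UMIs in all YA males together against 1 in L4 males, and 2 fell. The cell cycle genes cki-1, an inhibitor of cyclin-dependent kinases, and cyd-1, cyclin D, fell by 2.67-fold and 3.09-fold. They were the 2 called among 13 genes of cyclins and mitosis (15.4%, beside 12.7% of all genes called lower).

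Of the 6 male markers that the study names, Y39B6A.9, R01E6.5 and ram-5 fell, clec-207 and K09C8.2 rose, and pkd-2 did not pass the test; the last 3 are described with their tissues below. Y39B6A.9 (chromosome V, 19136506 to 19139094) had 2429, 2150, 2486 and 4423 in YA males, against 14875, 11681, 15658 and 17102 in L4 males (log2 fold change -2.37 ± 0.26 SE, adjusted p = 3.15e-09). YA replicate 4 was well above the other YA libraries and still lay far below the lowest L4 library. R01E6.5 had 987, 866, 894 and 1477 in YA males, against 5031, 5038, 4933 and 5301 in L4 males (log2 fold change -2.27 ± 0.30 SE, adjusted p = 1.10e-07). In ram-5, another gene of ray morphology, the counts were 24.0, 20.2, 30.2 and 41.8 in YA males, against 340.3, 314, 257 and 251 in L4 males (log2 fold change -3.32 ± 0.27 SE, adjusted p = 5.42e-12). These 3 genes averaged 1261, 685 and 11.6 in L3 males, so that for each L4 was the higher stage on either side. The DM domain gene dmd-3, which directs the retraction of the male tail tip, had 2.77, 2.43, 2.92 and 6.11 in YA males, against 22.9, 22.7, 13.1 and 12.5 in L4 males (log2 fold change -2.31 ± 0.49 SE, adjusted p = 3.30e-04), with its highest mean, 52.6, in L3 males. The posterior Hox gene egl-5 fell by 4.71-fold, the bZIP gene ces-2 by 3.27-fold and the homeobox gene cog-1 by 3.67-fold. The calls of dmd-3 and ces-2 were lost when counts were thinned to the smallest library (adjusted p = 0.168 and 0.196). Of 6 Hox genes 1 rose (16.7%, beside 10.1% of all genes) and 2 fell (33.3%, beside 12.7%). Of 32 other homeobox genes 1 rose (3.12%) and 5 fell (15.6%). The DM domain gene mab-3 had 203, 197, 178 and 226 in YA males, against 303, 422, 354 and 362 in L4 males, without overlap, but at -0.84 ± 0.25 (SE, adjusted p = 0.00729) it stayed below the fold limit. Of 7 DM domain genes tested dmd-3 was the 1 called.

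The list of nlp neuropeptide-like genes holds antimicrobial peptides of the epidermis beside neuropeptides, and its counts do not separate these kinds. Of 30 nlp genes 8 fell (26.7%, beside 12.7% of all genes) and 1 rose (3.33%, beside 10.1%). The most abundant of the called members named here, nlp-33, had 3022, 2747, 3407 and 4464 in YA males, against 11028, 10146, 14750 and 13934 in L4 males (log2 fold change -1.87 ± 0.19 SE, adjusted p = 4.37e-10). The others named, nlp-30, nlp-34 and nlp-25, fell by 8.76-fold, 6.15-fold and 6.02-fold. The linker histone gene his-24 fell by 3.20-fold. Of 40 histone genes tested 10 fell (25%) and 4 rose (10%), beside 12.7% and 10.1% of all genes. Many histone genes are near-identical copies, so counts of single members are uncertain.

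Many sperm genes rose. The major sperm proteins (MSPs) form the cytoskeleton of the crawling sperm and signal to oocytes. Of 31 tested MSP genes 18 were called higher (58.1%, beside 10.1% of all genes) and none lower. Their median log2 fold change was 1.36, with all 31 above 0. With DESeq2 size factors 23 were called and with upper-quartile scaling 13. MSP genes are near-identical, so counts of a single one are uncertain and the family is best read as a sum, which was 0.99% to 1.11% of the UMIs in YA males and 0.36% to 0.53% in L4 males. For msp-3 the counts were 4709, 4638, 5664 and 5921 in YA males, against 2315, 1802, 2146 and 1890 in L4 males (log2 fold change 1.36 ± 0.22 SE, adjusted p = 1.37e-05). For msp-142 they were 4149, 4171, 5144 and 4870 in YA males, against 2548, 1901, 2246 and 1572 in L4 males (log2 fold change 1.15 ± 0.25 SE, adjusted p = 4.34e-04). The YA and L4 libraries did not overlap in either gene. The genes msp-63 and msp-65 rose by 3.95-fold and 4.28-fold. Of 44 sperm genes outside the family 26 rose (59.1%) and 1, msd-2, fell (2.27%). The nematode-specific peptide genes nspd-1 and nspd-9, which also belong to a family of close copies, rose together. Counts of nspd-1 were 7221, 6149, 8037 and 7986 in YA males, against 3461, 2401, 2960 and 3206 in L4 males (log2 fold change 1.29 ± 0.21 SE, adjusted p = 4.27e-06), without overlap, and nspd-9 rose by 4.51-fold. The myosin gene spe-15, needed to sort components into spermatids, had 1046, 999, 1187 and 863 in YA males, against 388, 396, 428 and 506 in L4 males (log2 fold change 1.25 ± 0.21 SE, adjusted p = 8.60e-06). An MSP domain gene, spe-47, whose product delays sperm activation, rose by 3.57-fold.

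The list of Argonaute genes covers the family, not only its members in spermatogenesis. Of 18 Argonautes tested 5 rose (27.8%, beside 10.1% of all genes) and none fell. The paralogues alg-3 and alg-4, whose proteins bind small RNAs during sperm development, were among them. For alg-3 the counts were 411, 412, 481 and 334 in YA males, against 116, 153, 122 and 130.1 in L4 males (log2 fold change 1.65 ± 0.33 SE, adjusted p = 1.17e-04). For alg-4 they were 503, 575, 577 and 391 in YA males, against 141, 189.8, 185 and 189.7 in L4 males (log2 fold change 1.53 ± 0.28 SE, adjusted p = 9.11e-05). The groups did not overlap in either gene. The gene csr-1, which protects germline transcripts, rose by 2.60-fold, and ppw-2 by 2.11-fold. The call of csr-1 was lost on thinning (0.92, adjusted p = 0.336), and that of ppw-2 on thinning (0.73, adjusted p = 0.138) and, at 0.93, without L4 male replicate 1 or without YA male replicate 3. Genes of the germ line of both sexes changed less, with a median of 0.73 over 19 genes. Of these 2 rose (10.5%, beside 10.1% of all genes), glh-2 at 1.23 ± 0.39 and gld-1 at 1.05 ± 0.36 (log2, SE). Both calls were lost without YA male replicate 3 (adjusted p = 0.0514 and 0.0713). In DNA replication 2 of 17 genes rose (11.8%, beside 10.1% of all genes), orc-5 by 4.13-fold and div-1 by 2.31-fold. The call of div-1 was lost on thinning (0.59, adjusted p = 0.45). In whole animals, more cells of a type and more RNA per cell cannot be told apart, here and in every other list.

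Several families of secreted proteins were measured. The list of seminal fluid and vas deferens genes holds 2 tested genes, both known markers of that tissue. Counts of clec-207 were 2331, 2301, 2490 and 1942 in YA males, against 569.5, 493, 694 and 616 in L4 males (log2 fold change 1.93 ± 0.50 SE, adjusted p = 0.00301). Those of K09C8.2 were 477, 479, 512 and 555 in YA males, against 153, 158, 179.7 and 143 in L4 males (log2 fold change 1.67 ± 0.44 SE, adjusted p = 0.00453). Each YA library held more than double the count of any L4 library. Of 84 C-type lectin genes, which encode secreted proteins with a sugar-binding fold, 36 rose and 5 fell, beside 10.1% and 12.7% of all genes, and the family took 1.16% to 1.41% of the UMIs in YA males and 0.53% to 0.60% in L4 males. Counts of clec-104 were 584, 628, 613 and 562 in YA males, against 116, 82.5, 121 and 143 in L4 males (log2 fold change 2.37 ± 0.33 SE, adjusted p = 3.83e-07). Those of clec-232 were 242, 306, 279 and 306 in YA males, against 12.3, 10.3, 5.25 and 12.5 in L4 males (log2 fold change 4.81 ± 0.59 SE, adjusted p = 4.58e-08), the largest rise among lectins with a mean count of at least 50, and clec-233 rose by 3.84-fold. Of 9 genes of the SCP/TAPS family of cysteine-rich secreted proteins 3 rose (33.3%, beside 10.1% of all genes). For scl-15 the counts were 1617, 1960, 1780 and 1641 in YA males, against 349, 298, 371 and 464 in L4 males (log2 fold change 2.24 ± 0.61 SE, adjusted p = 0.00542), and scl-5 rose by 4.46-fold. Of 20 transthyretin-related genes 2 rose (10%), with a median of 0.016, and of 20 lysozyme and saposin genes 1 rose (5%), beside 10.1% of all genes. The 36 lectin genes had a median count of 5.19 in L3 males, 71.9 in L4 males and 244 in YA males. The calls of clec-207, K09C8.2 and scl-15 were lost with DESeq2's Wald test over the same 40 libraries (adjusted p = 0.154, 0.0958 and 0.238) and had adjusted p of 5.15e-09, 7.24e-09 and 2.71e-09 when edgeR was fitted to the 8 libraries alone. In these 3 genes YA hermaphrodite replicates 1 and 4 stood apart from replicates 2 and 3. For clec-207 replicates 1 and 4 had 137 and 128, and replicates 2 and 3 had 1.73 and 0. The spread of the 40-library model includes those libraries, and whether they account for the lost calls was not tested.

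**Figure D3:**
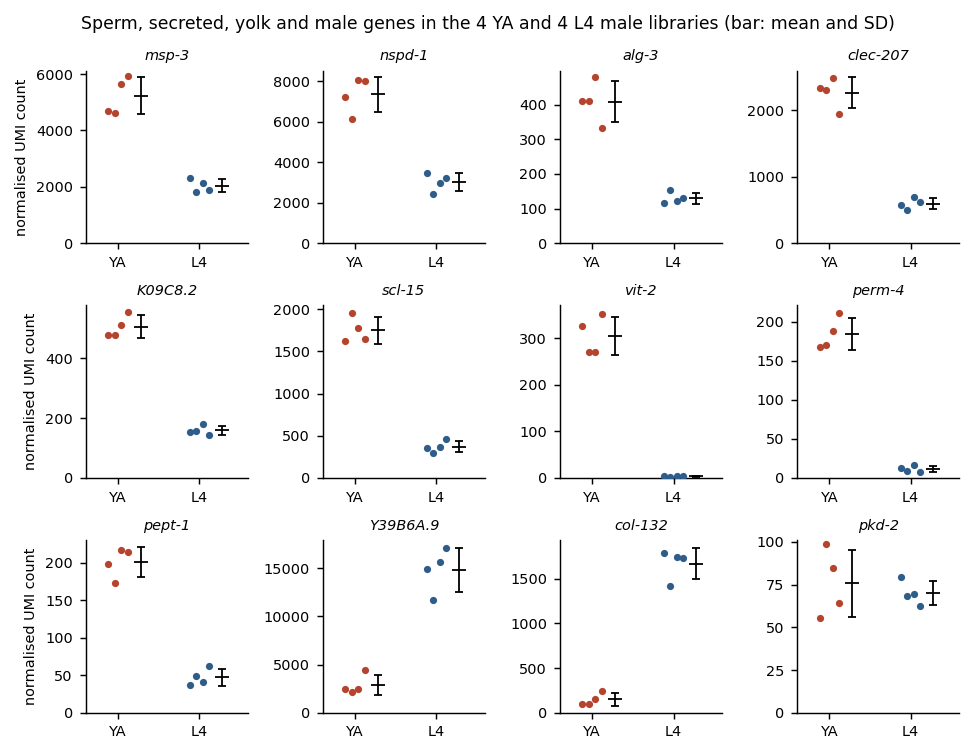
Normalised UMI counts of 12 genes in each of the 4 YA male libraries (left, red) and 4 L4 male libraries (right, blue), with the mean and SD beside the points; all axes start at 0. Sperm, lectin, secreted, yolk and eggshell genes and pept-1 are higher in YA males without overlap, Y39B6A.9 and col-132 are lower, and the groups overlap in pkd-2.

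The yolk protein genes rose by large factors, at counts far below those of hermaphrodites. All 6 vitellogenins were called higher, with a median log2 fold change of 5.88. Counts of vit-2 (chromosome X, 5101042 to 5106169) were 325, 270.1, 269.7 and 353 in YA males, against 3.53, 2.06, 3.94 and 3.14 in L4 males (log2 fold change 6.57 ± 0.54 SE, adjusted p = 5.42e-12). For vit-6 (chromosome IV, 8261157 to 8266459) they were 385, 353, 341 and 627 in YA males, against 3.53, 1.03, 2.62 and 4.70 in L4 males (log2 fold change 7.21 ± 0.61 SE, adjusted p = 3.35e-12), with YA replicate 4 well above the other YA libraries. For vit-5 they were 125, 117, 111 and 167 in YA males, against 0, 0, 1.31 and 0 in L4 males, which is 558 UMIs against 1, a ratio of 379 with a 95% interval of 67.7 to 14983 for counting error only. The genes vit-3, vit-4 and vit-5 are near-identical, so reads may be split between them. In YA males the 6 genes stood at 1.02% to 2.46% of the mean level of YA hermaphrodites, vit-2 at 1.13%. Against YA hermaphrodite replicates 2 and 3 alone, a comparison added after seeing the data, they stood at 0.754% to 2.58%, with vit-2 at 0.754% and vit-6 at 0.758%. In L4 males vit-2 stood at 0.0849% of L4 hermaphrodites, and the 6 genes at 0.0294% (vit-5) to 2.62% (vit-1). For vit-1 the share was higher at L4 than at YA, where it was 1.02%.

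Genes of oocytes and the eggshell rose too, 15 of 26 tested (57.7%, beside 10.1% of all genes), with none lower and a median of 1.11. Counts of perm-4, of the permeability barrier of the eggshell, were 168, 169.8, 189 and 211 in YA males, against 12.3, 9.28, 17.1 and 7.84 in L4 males (log2 fold change 3.97 ± 0.43 SE, adjusted p = 6.28e-09). The relatives perm-2 and cpg-3, an eggshell proteoglycan, rose by 7.78-fold and 4.13-fold. In YA males perm-4, perm-2 and cpg-3 stood at 1.346%, 1.502% and 1.329% of the mean of YA hermaphrodites, and at 0.868%, 1.003% and 1.054% of that of replicates 2 and 3. In L4 males they stood at 1.18%, 2.18% and 3.88% of the mean of L4 hermaphrodites. In mex-5, a polarity gene of the early embryo, the counts were 522, 509, 554 and 431 in YA males, against 212, 223, 218 and 176 in L4 males (log2 fold change 1.28 ± 0.22 SE, adjusted p = 1.75e-05). YA males stood at 18.8% of YA hermaphrodites for mex-5 and at 15.1% of replicates 2 and 3, and L4 males at 34.7% of L4 hermaphrodites. Another 3 genes without a name, among the 12 largest increases in genes with a mean count of at least 50, were also far higher in hermaphrodites. Y62H9A.5 had 102, 85.7, 83.7 and 155 in YA males, against 1.76, 1.03, 0 and 3.14 in L4 males. D1054.11 had 89.6, 83.3, 114 and 115 in YA males, against 0, 0, 2.62 and 6.27 in L4 males. Counts of Y37D8A.19 were 92.4, 73.6, 102 and 123 in YA males, against 3.53, 3.09, 2.62 and 7.84 in L4 males. No YA library overlapped an L4 library in these 3 genes, whose means in YA hermaphrodites were 4309, 9593 and 7161, or 2795, 14293 and 9654 in replicates 2 and 3. The 2 tested genes listed as embryo markers, meg-1 and meg-2, had 3 and 1 UMIs in all YA males together and none in L4 males. The part of any hermaphrodites left in the male cultures in these counts was not tested.

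Some genes of the intestine that were low at L4 rose. Of 9 genes on the list 3 rose (33.3%, beside 10.1% of all genes), pept-1, vha-6 and mtl-1, and none fell. The peptide transporter gene pept-1 had 199, 173, 217 and 214 in YA males, against 37.0, 48.5, 40.7 and 62.7 in L4 males (log2 fold change 2.08 ± 0.67 SE, adjusted p = 0.0155). Its mean was 1197 in L2 males and 1028 in L3 males, so the YA level was still below that of the earlier larvae. The proton pump gene vha-6 had 84.1, 65.5, 83.7 and 89.7 in YA males, against 24.7, 24.8, 10.5 and 23.5 in L4 males (log2 fold change 1.95 ± 0.48 SE, adjusted p = 0.00161), after a mean of 233 in L3 males. The same course held for fat-6, a fatty acid desaturase, with 128, 125, 130.5 and 112 in YA males, against 40.6, 13.4, 22.3 and 29.8 in L4 males (log2 fold change 2.26 ± 0.70 SE, adjusted p = 0.0118) and an L3 mean of 423, and for cpt-2, a carnitine palmitoyltransferase, which rose by 3.97-fold. All 4 genes had YA libraries above every L4 library. The whole list took 0.11% to 0.12% of the UMIs at either stage. The remaining metabolic lists are given beside the 10.1% of all genes called higher and the 12.7% called lower. Fatty acid oxidation had 2 higher (7.14%) and 1 lower (3.57%) of 28, and fatty acid synthesis 2 higher of 15 (13.3%). Detoxification enzymes had 3 higher (8.57%) and 1 lower (2.86%) of 35. Glycolysis and the TCA cycle had 1 higher of 29 (3.45%), and the respiratory chain had none called of 25. The small heat shock protein gene hsp-43 rose with 1097, 1042, 958 and 1104 in YA males, against 319, 389, 371 and 348 in L4 males (log2 fold change 1.56 ± 0.27 SE, adjusted p = 1.68e-05), the 1 called of 12 chaperone genes.

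**Figure D4:**
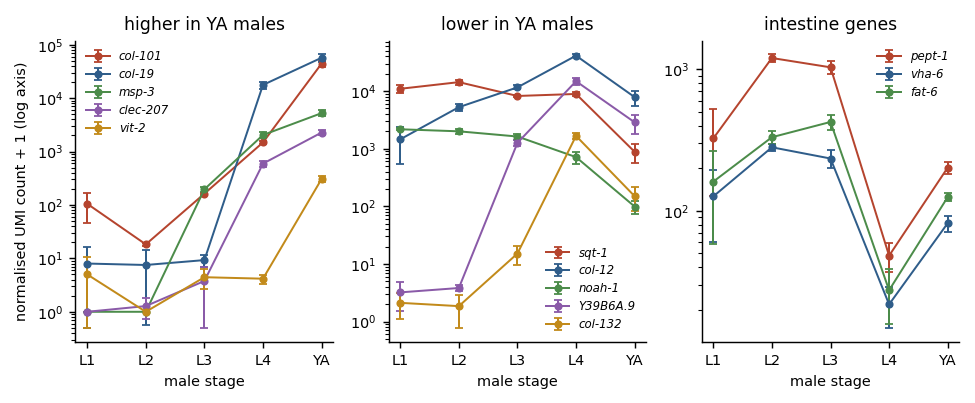
Mean normalised UMI count plus 1 on a log axis at the 5 male stages (n = 4 libraries each, bars SD, lower bars cut at 0.5) for genes that were higher in YA than L4 males, genes that were lower, and 3 intestine genes. The counts of col-19 and msp-3 were already high at L4, those of Y39B6A.9 and col-132 were highest at L4, and the intestine genes were lowest at L4.

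Neuronal genes were split. The male ciliated neuron genes belong to sensory neurons of the tail and head that serve mating. None of 5 tested was called, beside 22.8% of all genes. Their log2 fold changes ran from -0.40 to 2.07, and the libraries of the 2 stages did not overlap for 1 of them. A list of 5 genes is too short to show that the class did not change. The members pkd-2 and cwp-1 were already present at L4. The polycystin gene pkd-2 had 55.4, 98.6, 84.7 and 64.2 in YA males, against 79.3, 68.1, 69.5 and 62.7 in L4 males, with overlapping groups (log2 fold change 0.12 ± 0.35 SE, adjusted p = 0.849). The gene cwp-1, expressed in the same neurons, had 236, 327, 246 and 317 in YA males, against 286, 205, 184 and 216 in L4 males, also overlapping (log2 fold change 0.34 ± 0.35 SE, adjusted p = 0.509). The 2 genes averaged 0.246 and 19.0 in L3 males. Genes of ciliary transport and the transition zone instead fell in 10 of 23 (43.5%, beside 12.7% of all genes) and rose in none, with a median of -1.001. Counts of osm-5, a component of the transport particles in cilia, were 14.8, 7.28, 7.79 and 19.4 in YA males, against 56.4, 36.1, 51.2 and 58.0 in L4 males (log2 fold change -2.03 ± 0.29 SE, adjusted p = 5.81e-07), and dyf-19 fell by 3.80-fold. The call of osm-5 was lost on thinning (adjusted p = 0.0828). All but 1 of the 23 genes had mean counts under 50, and with DESeq2 size factors 8 fell.

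Of 21 synaptic and peptide processing genes 4 fell (19%, beside 12.7% of all genes) and none rose. Among the 4 was cat-2, the tyrosine hydroxylase of dopamine synthesis, at -1.69 ± 0.36 (log2, SE, adjusted p = 2.78e-04). Ligand-gated ion channels fell in 7 of 31 (22.6%) and rose in 1. The gene lgc-21 had 75.7, 92.2, 108 and 130.4 in YA males, against 644, 787, 540.5 and 488 in L4 males (log2 fold change -2.60 ± 0.41 SE, adjusted p = 3.78e-06), and lgc-22 fell by 2.62-fold. Of 29 potassium channel genes 3 fell (10.3%, below the 12.7% of all genes) and none rose. Among the 3 were slo-1, of the calcium-activated channel, at -1.58 and egl-23 at -1.58 (log2). On thinning slo-1 was at -0.60 (adjusted p = 0.575) and not called. Among 23 FMRFamide-like peptide genes 1 fell (4.35%). Insulin-like peptide genes rose in 2 of 16 (12.5%, beside 10.1% of all genes). The more abundant of the 2, ins-37, rose by 2.12-fold (not called on thinning, adjusted p = 0.161). Counts of ins-39 were 27.7, 32.3, 32.1 and 35.7 in YA males, against 44.1, 43.3, 53.8 and 36.1 in L4 males. The gene ins-39 did not pass the test at -0.47 ± 0.25 (log2, SE, adjusted p = 0.161). None of 10 chemoreceptor genes was called, beside 22.8% of all genes. The most abundant of these, srj-49, had 710.4, 822, 732 and 757 in YA males, against 453, 474, 388 and 369.9 in L4 males. The groups did not overlap, but the adjusted p was 0.0748. It was called higher with no low-count filter (log2 fold change 1.04) and without L4 male replicate 2 (1.14). YA hermaphrodite replicates 1 and 4 had 30.9 and 35.5 of srj-49, and replicates 2 and 3 had 0 and 0.

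The classes below are given beside the 22.8% of all genes called, 10.1% higher and 12.7% lower. Of 78 cytosolic ribosomal protein genes 1 was called, rpl-42, and the median of the class was -0.31, beside -0.05 for all genes. DESeq2 size factors shifted the median of all genes by 0.15, but scaling moves the class and all genes alike. The cause of the difference between the medians was not tested. Their summed share was 22.7% to 24.8% of the UMIs in YA males and 24.3% to 28.2% in L4 males. Proteasome genes had 2 lower of 31 (6.45%), and body wall muscle genes 2 lower of 22 (9.09%). Pharyngeal muscle genes had none called of 7, a list too short to show an absence of change. In body wall muscle, unc-45, a chaperone of myosin, had 27.7, 29.9, 30.2 and 26.5 in YA males, against 75.8, 94.9, 104 and 78.4 in L4 males (log2 fold change -1.62 ± 0.27 SE, adjusted p = 9.24e-06), a call lost on thinning (-0.79, adjusted p = 0.189). The myosin heavy chain gene myo-3 had 844, 993, 888 and 827 in YA males, against 1656, 1801, 1837 and 1814 in L4 males. The groups did not overlap, but the fold change of myo-3 only just met the limit (adjusted p = 9.86e-06), and the call was lost with DESeq2 size factors, where it was -0.85. None of 10 sex determination genes and none of 8 genes of the dosage compensation complex was called. These lists too are short, so the counts do not show an absence of change. The mutated dpy-28 itself had 78.5, 68.7, 100.3 and 58.1 in YA males, against 49.4, 65.0, 77.4 and 58.0 in L4 males (log2 fold change 0.28 ± 0.28 SE, adjusted p = 0.488), with overlapping groups, and its transcript level is no check of the mutation.

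Genes on the X chromosome and on autosomes are described side by side, without a test. Of 1073 X-linked genes tested, 45 rose (4.19%) and 225 fell (21%), whereas 749 of 6862 autosomal genes rose (10.9%) and 789 fell (11.5%). The median log2 fold change was -0.46 on the X and 0.02 on the autosomes. Scaling shifts both alike, and the difference of the medians, -0.48, ranged from -0.45 to -0.52 over the 18 alternatives. By chromosome, the share of genes called higher was largest on IV (15.2%) and ran from 7.88% to 11.4% on the other autosomes. By contrast, X-linked genes took a larger share of all UMIs in YA males, 11.6% to 12.1%, than in L4 males, 9.15% to 10.3%, and the collagens col-19, col-178 and col-181 are X-linked.

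The remaining genes among the 12 largest changes of each direction were less well known. Of those that rose, K12H6.8 had 1277, 1112, 1179 and 1209 in YA males, against 95.2, 79.4, 74.8 and 116 in L4 males (log2 fold change 3.71 ± 0.55 SE, adjusted p = 1.81e-06), after no count in L3 males. The gene decr-1.3, named as a dienoyl-CoA reductase, had 98.8, 110.0, 129 and 108 in YA males, against 1.76, 6.19, 5.25 and 6.27 in L4 males (log2 fold change 4.43 ± 0.63 SE, adjusted p = 3.14e-06). Both were without overlap. Of those that fell, H31G24.1 had 104, 42.9, 82.8 and 173 in YA males, against 1284, 1149, 1162 and 1188 in L4 males (log2 fold change -3.57 ± 0.34 SE, adjusted p = 7.03e-11). The ground-like gene grl-26 had 18.5, 13.7, 14.6 and 38.7 in YA males, against 407, 273, 291 and 315 in L4 males (log2 fold change -3.91 ± 0.34 SE, adjusted p = 4.74e-11). In both, YA replicate 4 was the highest YA library and lay far below the L4 libraries. K01D12.8, Y65B4BM.2, Y43D4A.5 and T06G6.6 fell by 14.6-fold, 13.8-fold, 12.4-fold and 11.8-fold. Genes without a gene class name (letters, a hyphen and a number) made up 468 of the 818 called higher and 453 of the 1032 called lower. Genes with such a name were 350 of the 818, 579 of the 1032 and 4408 of all 8110 genes tested.

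Whether the step was the same in hermaphrodites was tested with an interaction, the stage change of males minus that of hermaphrodites, which uses 16 libraries with none shared between the sexes. YA hermaphrodite replicates 1 and 4 stood apart, with 9651 and 10069 genes detected against 8792 and 8823 in replicates 2 and 3 and with counts of the male genes above. The difference was called for 33.8% of all genes, 1400 with the more positive change in males (17.3%) and 1344 with the more negative (16.6%), and for 2133 and 1664 genes without those 2 libraries. Of the 818 genes called higher in YA males, the change was more positive in males for 335, more negative for 48 and not called different for 435, and without the 2 libraries for 435, 54 and 329. Of the 1032 called lower, it was more positive, that is, the fall was smaller in males, for 219, more negative for 173 and not called different for 640, and without the 2 libraries for 225, 201 and 606, these splits having been added after seeing the data. The male values that selected the 818 and the 1032 genes also enter the difference. Part of the excess of positive differences among the 818 is therefore built in, and the splits are a description only.

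**Figure D5:**
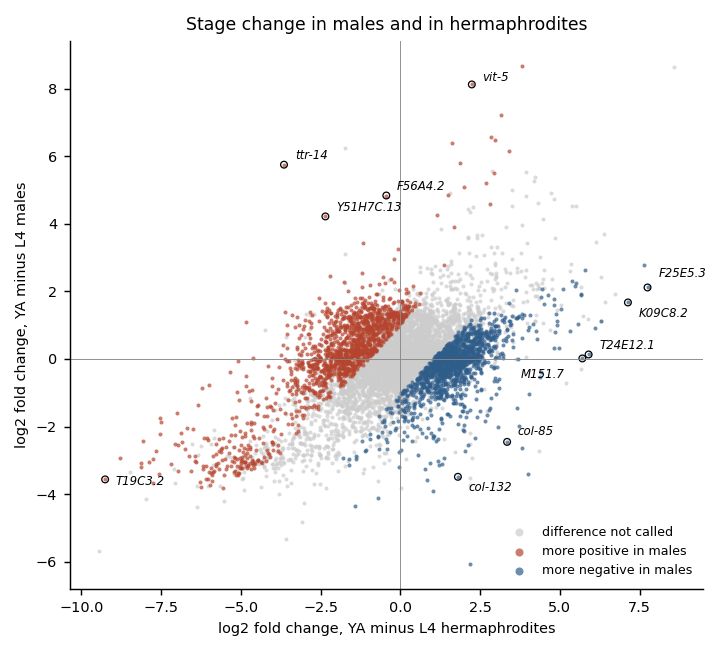
Log2 fold change from L4 to YA in males (vertical axis) against that in hermaphrodites (horizontal axis), 1 point a gene with a mean count of at least 5 over the 8 male libraries, and ttr-14, coloured by whether the difference between the sexes was called. The yolk gene vit-5 rose in both sexes, by the larger fold in males, whose L4 libraries held 1 UMI of it in all. The genes col-132 and col-85 lie below 0 in males and above 0 in hermaphrodites, where their counts were low. T19C3.2 fell in both sexes.

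A pair of male-biased collagens fell in males. In L4 hermaphrodites their counts were near 0, so a fall there could not have been seen, and the size of the fitted differences depends on the prior count. The gene col-132 had 101, 95.4, 157 and 242 in YA males, against 1788, 1412, 1742 and 1727 in L4 males (log2 fold change -3.49 ± 0.30 SE, adjusted p = 4.69e-12). Its counts in wild-type worms were 8.82, 1.73, 3.45 and 4.63 in YA hermaphrodites and 1.19, 4.24, 0.928 and 0 in L4 hermaphrodites, and the change differed by -5.29 ± 0.85 (SE, adjusted p = 7.71e-06). The gene col-85 had 31.4, 29.9, 23.4 and 45.9 in YA males, against 227, 165, 144 and 180.3 in L4 males (log2 fold change -2.45 ± 0.36 SE, adjusted p = 2.90e-06). In wild-type worms they were 2.21, 8.67, 13.8 and 3.09 in YA hermaphrodites and 1.19, 0, 0.928 and 0 in L4 hermaphrodites, a difference of -5.80 ± 0.84 (SE, adjusted p = 4.50e-06). Both collagens were high in L4 males and nearly absent from hermaphrodites at either stage, and both differences stayed called without the 2 libraries (-4.54 and -6.45). Of the genes without a name, T24E12.1 and M151.7 did not pass the test in males (log2 fold changes of 0.13 and 0.02, adjusted p = 0.863 and 0.986) and rose by 5.90 and 5.71 in hermaphrodites (log2). The differences were -5.77 ± 0.65 (SE, adjusted p = 2.11e-08) for T24E12.1 and -5.69 ± 0.62 (SE, adjusted p = 1.11e-08) for M151.7, and -6.26 and -6.31 without the 2 libraries. The last 2 negative differences rested on the hermaphrodite libraries that stood apart. K09C8.2 had 48.5, 0, 0 and 24.7 in YA hermaphrodites and 0, 0, 0 and 0 in L4 hermaphrodites, all of it in replicates 1 and 4. F25E5.3 rose in males, with 418, 477, 493 and 434 in YA males, against 130.5, 95.9, 97.1 and 97.2 in L4 males (log2 fold change 2.12 ± 0.47 SE, adjusted p = 6.26e-04). In hermaphrodites it had 70.6, 1.73, 0 and 38.6 in YA hermaphrodites and 0, 0, 0 and 0 in L4 hermaphrodites. Their differences of -5.46 ± 1.63 (SE, adjusted p = 0.00977) and -5.63 ± 1.62 (SE, adjusted p = 0.00648) became 1.67 (adjusted p = 1.0) and -0.89 (adjusted p = 0.423) without YA hermaphrodite replicates 1 and 4, so neither is read as a difference between the sexes.

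Among the positive differences, vit-5 rose in both sexes, with 5207, 4953, 5131 and 5842 in YA hermaphrodites and 1093, 695, 1383 and 1294 in L4 hermaphrodites, and its change differed by 5.89 ± 0.72 (SE, adjusted p = 2.62e-07). The L4 male libraries held 1 UMI of vit-5 in all. YA males stood at 2.46% of the mean level of YA hermaphrodites, and at 2.58% of that of replicates 2 and 3. T19C3.2 fell in both sexes. It had 19.4, 9.70, 15.6 and 29.5 in YA males, against 205, 265, 193 and 210.1 in L4 males (log2 fold change -3.56 ± 0.35 SE, adjusted p = 1.29e-10). Hermaphrodites had 0, 1.73, 0 and 0 in YA hermaphrodites and 342, 341, 299 and 404 in L4 hermaphrodites, a difference of 5.69 ± 0.85 (SE, adjusted p = 2.57e-06). Where a group is at or near 0, as for vit-5 in L4 males and T19C3.2 in YA hermaphrodites, the size of a fitted difference depends on the prior count. The transthyretin-like gene ttr-14 and Y51H7C.13 rose in males and fell in hermaphrodites. Male counts of ttr-14 were low, 5.54, 11.3, 3.90 and 5.09 in YA males, against 0, 0, 0 and 0 in L4 males, or 29 UMIs against none, at least 6.56-fold higher against a floor of 3 counts over the L4 group, while the values were 124, 17.3, 13.8 and 98.9 in YA hermaphrodites and 768, 545, 951 and 876 in L4 hermaphrodites. Male counts of Y51H7C.13 were 27.7, 76.8, 50.6 and 4.08 in YA males, against 1.76, 1.03, 5.25 and 0 in L4 males, overlapping, since YA replicate 4 lay within the L4 range, while the values were 117, 472, 456 and 159 in YA hermaphrodites and 1612, 1212, 1650 and 1670 in L4 hermaphrodites. Their differences were 9.40 ± 1.42 (SE, adjusted p = 1.26e-05) for ttr-14 and 6.57 ± 0.83 (SE, adjusted p = 2.63e-07) for Y51H7C.13. For F56A4.2 the male counts were 141, 25.1, 1683 and 37.7 in YA males, against 14.1, 12.4, 11.8 and 28.2 in L4 males. A single YA library, replicate 3, held most of them, and another overlapped the L4 range, so the difference of 5.28 ± 1.28 (SE, adjusted p = 0.00132) describes that library more than the group. The ribosomal RNA gene rrn-1.2 had 6.47, 4.85, 11.7 and 2.04 in YA males, against 8.82, 22.7, 7.87 and 3.14 in L4 males. Values were 19.9, 13.9, 3.45 and 4.63 in YA hermaphrodites and 27.3, 23.3, 2567 and 358 in L4 hermaphrodites. Its difference of 5.36 ± 2.14 (SE, adjusted p = 0.0457) rested on L4 hermaphrodite replicate 3, without which it was 2.97 (adjusted p = 0.237), and was lost under 13 alternatives in all, among them a replicate block (adjusted p = 0.204) and leaving out YA male replicate 3 (0.118). It is not read as a difference between the sexes. Without YA hermaphrodite replicates 1 and 4 the differences were 5.98 for vit-5, 11.45 for ttr-14, 5.97 for Y51H7C.13, 4.89 for T19C3.2 and 7.04 for F56A4.2, all still called.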

How the data were processed

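Whole animals were profiled by a bulk form of MARS-seq, with 4 biological repeats for each of 5 stages in males and hermaphrodites. The authors trimmed reads with cutadapt, aligned them to WBcel235 with STAR 2.4.2a and counted genes with HTSeq-count; neither the release of the gene annotation nor the use of strand in counting is stated. The values used are the deposited whole-number UMI counts of 40 columns. The deposited table also holds 120 further columns of normalised or transformed values per sample and 315 columns of the authors' own comparisons (means, fold changes, p-values), none of which was used.

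Statistics used edgeR 4.0.16 (R 4.3.3), with DESeq2 1.42.0 as an alternative, and tables and figures used Python 3.11.15. Genes passed filterByExpr (minimum count 10, minimum total 15), libraries were scaled by TMM, and 1 quasi-likelihood model with 10 group means gave the contrasts. Standard errors were taken from the fold change and its F statistic. Normalised counts are UMI counts divided by the effective library size and multiplied by the mean effective size. The fitting script was tested on simulated data. Coordinates are those of WBcel235 in Ensembl release 115, in which 11669 of 11933 genes were placed. Sequences were not analysed here.

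Members and gene lists were chosen with earlier results of these data known. The genes named are the 12 of each direction with the largest change among those without overlap and with a mean count of at least 50, the 6 most abundant called genes of each direction, up to 4 called members of each of 51 lists by smallest p (or the 2 most abundant where none was called), genes the study names as examples, the 6 largest interactions of each direction, and dpy-28; others are said to have been looked up or are members of a count of 5 or fewer. Alternatives changed the scaling, the filter, the test, the libraries fitted or the depth, which was thinned to 1724365 UMIs a library. Depth limits what low genes show, and intervals and floors cover counting error only.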

Additional observations from a re-analysis of the deposited data

Results flagged for a closer look

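Of 268 groups of 4 libraries tested, the YA and L4 males of each named gene, 17 had 1 library far from the other 3 by Dixon's test, where chance flags about 1 in 20. In YA males these were replicate 4 for dmd-3 (6.11), vit-6 (627) and Y39B6A.9 (4423), all high, replicate 3 for nspd-9 (974, high), egl-5 (0.974, low) and F56A4.2 (1683, high), and replicate 2 for wrt-4 (61.5, low). In L4 males they were replicate 4 for col-122 (31363), perm-2 (25.1) and F56A4.2 (28.2), all high, replicate 3 for col-13 (32392, high), vit-5 (1.31, a single UMI), vha-6 (10.5, low) and egl-5 (18.4, low), replicate 1 for alg-4 (141, low) and F25E5.3 (130.5, high), and replicate 2 for col-132 (1412, low). All values are normalised counts. Without YA male replicate 3, F56A4.2 is carried by 141, 25.1 and 37.7 in YA males, against 14.1, 12.4, 11.8 and 28.2 in L4 males.

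With all libraries, the edgeR interaction test called a difference in the stage change for the 12 genes named for it (log2, males minus hermaphrodites). The more positive were ttr-14 (9.40), Y51H7C.13 (6.57), vit-5 (5.89), T19C3.2 (5.69), rrn-1.2 (5.36) and F56A4.2 (5.28). The more negative were col-85 (-5.80), T24E12.1 (-5.77), M151.7 (-5.69), F25E5.3 (-5.63), K09C8.2 (-5.46) and col-132 (-5.29). Those of K09C8.2 and F25E5.3 were not called without YA hermaphrodite replicates 1 and 4, that of rrn-1.2 was not called without L4 hermaphrodite replicate 3 (2.97) and under 12 other alternatives, and that of F56A4.2 was 2.50 without YA male replicate 3.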

How the results depend on the processing

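Counts of calls between YA and L4 males stayed within 1.5 times under all but 2 of 18 alternatives. Counts thinned to the smallest library gave 971 calls (365 higher, 606 lower), and glmTreat, which tests against a 2-fold change, gave 735 (170 higher, 565 lower). Leaving out 1 library at a time gave 1637 to 1859 calls, 688 to 1055 higher and 804 to 1047 lower. For the difference between the sexes, thinning gave 1382 calls (535 more positive and 847 more negative in males), no low-count filter gave 876 more negative, and leaving out YA hermaphrodite replicates 1 and 4 gave 2133 more positive; leaving out 1 library gave 2423 to 3057 calls, 1237 to 1644 more positive and 1007 to 1466 more negative. The causes were not tested.

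Same-numbered YA and L4 male libraries did not deviate together (correlations of -0.013, -0.024, 0.051 and -0.067), so the numbers were not taken as pairs; with a replicate block 1870 genes were called, 841 higher and 1029 lower, and 1812 of these were among the 1850.

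Of 125 named genes that were called, 83 kept the call under every alternative run, and 10 lost it under at least 1 other than thinning or glmTreat: clec-207, K09C8.2, scl-15, myo-3, dre-1, gld-1, glh-2, ppw-2, ins-37 and ttr-14. Of those not called, lin-29 was called lower under 5 alternatives (-1.01 to -1.09) and srj-49 called higher under 2 (1.04 and 1.14). Signs turned among genes that were not called. Leaving out 1 library at a time, the log2 fold change ran from -0.038 to 0.34 for pkd-2 (below 0 without YA male replicate 2), from -1.31 to 0.15 for rrn-1.2 (above 0 without L4 male replicate 2) and from -0.082 to 0.22 for M151.7, which was also -0.015 with 8 libraries alone and -0.029 with upper-quartile scaling. The interaction of K09C8.2 turned to 1.67 without YA hermaphrodite replicates 1 and 4. Depth limits genes with few UMIs, such as lin-41, ttr-14 and the zero counts of vit-5.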
